A study of Mus musculus with 6 samples.

Results

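The genes described here are 10 members of the Hippo pathway, listed by symbol: the coactivators Yap1 and Wwtr1, the DNA-binding factors Tead1, Tead2 and Tead3, the kinases Lats1 and Lats2, and the target genes Ctgf, Cyr61 and Amotl2. Of these, 7 of 10 were found among the 12041 symbols of the table, each represented by its row with the highest mean normalized count. Wwtr1, Tead1 and Lats2 matched no row by symbol or by transcript and are not analysed here. The samples were cortices of C57BL/6 mouse embryos at embryonic day 12.5, in 3 wild-type (WT) libraries named HC-1, HC-8, HC-10 and 3 libraries of Hdac1&2 cKO, a conditional knockout of both histone deacetylase genes, named HM-5, HM-13, HM-16. The Cre driver, the exons removed and the number of embryos behind a library are not stated in the labels, so p-values measure the spread between libraries, which may be technical. The comparison asks how transcript levels in the developing cortex differ when HDAC1 and HDAC2, enzymes that remove acetyl groups from histones, are deleted.

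In the Hippo pathway, the MST kinases with their adaptor SAV1 activate the LATS kinases, which work with MOB1 and phosphorylate the coactivators YAP (Yap1) and TAZ (Wwtr1). Phosphorylated YAP and TAZ are held in the cytoplasm by 14-3-3 proteins or degraded. Unphosphorylated, they enter the nucleus, bind TEAD factors and switch on genes such as Ctgf and Cyr61, which encode secreted matrix proteins of the CCN family, and Amotl2, which encodes a junction protein that in turn restrains YAP. In the embryonic brain the pathway is known for its control of the proliferation of neural progenitors. Much of its regulation acts on proteins, which RNA levels do not show.

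Each row of the table stands for 1 transcript, and for several members that transcript is not the main coding mRNA. The rows of Yap1 (ENSMUST00000174300), Tead3 (ENSMUST00000127212) and Amotl2 (ENSMUST00000138224) are annotated in GENCODE M21 as transcripts with a retained intron, whereas those of Tead2 (ENSMUST00000107801), Lats1 (ENSMUST00000165952), Ctgf (ENSMUST00000020171) and Cyr61 (ENSMUST00000029846) are coding. The Yap1 transcript (chromosome 9, 7996908 to 8004596, GRCm38) has 2 exons, and 4549 of its 5282 bases lie in no other annotated transcript of the gene, in the stretch 7996908 to 8001456. The Tead3 transcript (chromosome 17, 28331716 to 28350663) has 12 exons, and 943 of its 3443 bases are its own, at 28335497 to 28336273 and 28336345 to 28336510. The Amotl2 transcript (chromosome 9, 102722534 to 102733418) has 1035 own bases of 4332. Among the coding rows, own bases number 1198 of 3396 for Tead2 (chromosome 7, 45215852 to 45233619), 3111 of 7209 for Lats1 (chromosome 10, 7681214 to 7716460), 284 of 2398 for Ctgf (chromosome 10, 24595442 to 24598678) and all 2019 for Cyr61 (chromosome 3, 145646976 to 145649981), which has 1 annotated transcript. The counting of reads shared by several transcripts is not given in the sources used here. Values below are therefore levels of these transcripts and not of whole genes, and a low value of Yap1 or Amotl2 does not give the level of the coding mRNA.

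**Figure D1:**
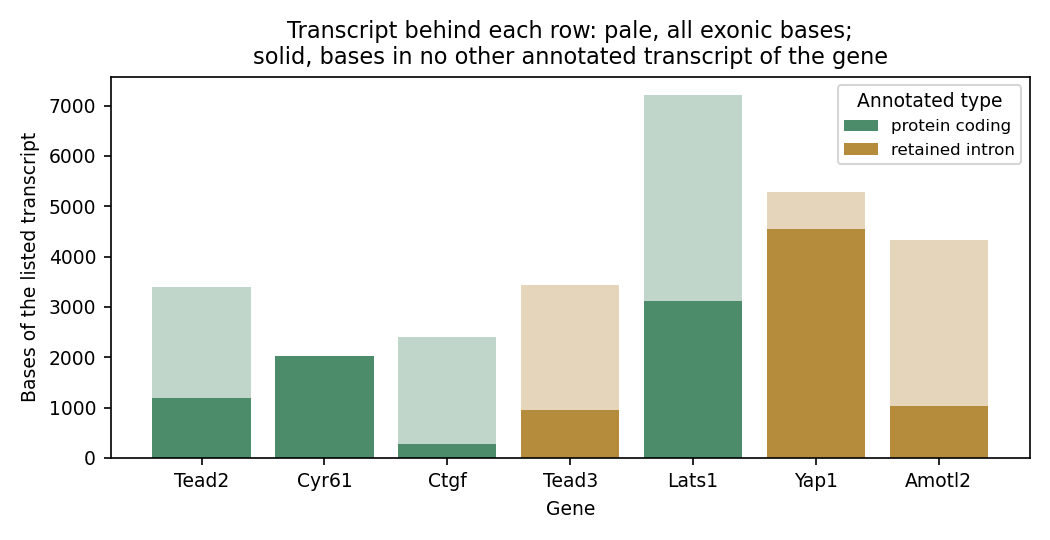
Length in bases of the transcript behind the row of each of the 7 genes (pale bars) and the part found in no other annotated transcript of that gene (solid bars), coloured by annotated type. Yap1, Tead3 and Amotl2 are the 3 rows with a retained intron, and only for Cyr61 do all 2019 bases belong to a single annotated transcript.

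This feature was shared by many genes with several isoforms. Of 3967 coding genes with 8 or more annotated transcripts, 61.3% had a row, and 15.5% of those with a row had none for a coding transcript. Of 4549 coding genes with 1 transcript, 28.7% had a row. The length implied by the ratio of counts to FPKM (fragments per kilobase of transcript, scaled to sequencing depth) lay within 10% of the annotated length for 72.9% of 7540 rows compared. It was 5286 bases for Yap1 and 3399 for Tead2, close to the annotation, and 3631 for Tead3 against 3443.

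TEAD factors bind the letters CATTCC, read on either strand (GGAATG on the other). Promoter windows of 300 bases, 250 before to 50 after the start site, were found in RefSeq (GRCm38.p6) for 8 of the 10 members, by current symbol or synonym. These letters occur in 6 of the 8 members and in 8 of their 12 windows, against 14.7% of 32851 windows of all genes. The 2 windows of Wwtr1 overlap and share 1 match, and those of Tead3 overlap in part, so windows are not independent. The 14.7% counts windows and has no counterpart for members, since a member with several windows has more chances of a match. Whether the members differ from all genes was not tested. Printed below are the windows of Tead3, whose transcript rose, of Tead2, which showed the next largest difference, and of the target genes Cyr61 and Amotl2, through which TEAD activity is commonly read. Each runs 5′ to 3′ on the strand of the gene, and capitals mark the matches.
Tead3, chr17:28350551-28350850, minus strand: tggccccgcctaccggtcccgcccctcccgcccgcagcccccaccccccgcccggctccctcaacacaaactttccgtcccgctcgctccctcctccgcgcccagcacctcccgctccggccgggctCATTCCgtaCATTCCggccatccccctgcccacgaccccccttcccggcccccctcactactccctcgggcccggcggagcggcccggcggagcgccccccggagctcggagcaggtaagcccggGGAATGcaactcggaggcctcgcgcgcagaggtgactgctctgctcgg
Tead2, chr7:45215542-45215841, plus strand: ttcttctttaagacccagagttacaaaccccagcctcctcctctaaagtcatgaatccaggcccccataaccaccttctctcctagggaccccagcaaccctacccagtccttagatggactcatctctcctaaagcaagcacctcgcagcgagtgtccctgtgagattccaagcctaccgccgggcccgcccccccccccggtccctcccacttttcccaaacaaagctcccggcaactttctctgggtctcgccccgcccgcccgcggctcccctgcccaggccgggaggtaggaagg
Cyr61, chr3:145649936-145650235, minus strand: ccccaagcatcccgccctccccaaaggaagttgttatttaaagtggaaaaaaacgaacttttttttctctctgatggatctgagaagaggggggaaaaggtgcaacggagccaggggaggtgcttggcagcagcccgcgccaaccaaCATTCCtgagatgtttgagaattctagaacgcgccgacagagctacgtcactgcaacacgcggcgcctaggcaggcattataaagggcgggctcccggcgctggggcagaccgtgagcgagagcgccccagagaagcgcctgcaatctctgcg
Amotl2, chr9:102717554-102717853, plus strand: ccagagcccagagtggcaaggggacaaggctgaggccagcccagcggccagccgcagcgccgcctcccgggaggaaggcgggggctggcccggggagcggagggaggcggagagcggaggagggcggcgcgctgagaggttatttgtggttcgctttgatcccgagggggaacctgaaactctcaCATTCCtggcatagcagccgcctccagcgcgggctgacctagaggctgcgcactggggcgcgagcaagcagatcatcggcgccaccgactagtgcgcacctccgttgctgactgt

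Of 3 Tead3 windows, the one printed holds the most matches, 3, which begin at -123, -114 and 2 relative to the start site, counted as 0. Another holds 1, at -182, and the third none. The Cyr61 window holds 1 match at -103 and the Amotl2 window 1 at -65. The Tead2 window holds none. A match describes the letters of the window and is no evidence of binding, which these data do not measure. The RefSeq start sites are also not those of the transcripts measured for Amotl2, Tead2 and Tead3. The measured Amotl2 transcript starts at 102722534, outside the printed window. The measured Tead2 transcript starts at 45215852, also outside the printed window, whose start site is 45215792. For Cyr61 the measured start, 145649981, lies close to that of the window, 145649985. The measured Tead3 transcript starts at 28350663, and the start site of the printed window is 28350600. The windows of Yap1 and of 1 of the 2 Lats2 start sites also hold 1 match each.

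The recovered reads total 9712556 to 11922665 per library. HM-13 stands apart: Rn45s, a ribosomal RNA, took 29.7% of its reads, and 0.506% to 2.48% elsewhere, so results are also given without it. As a check of the labels, Hdac1 fell to 25.6% and Hdac2 to 23.6% of the WT mean FPKM in cKO (limma, adjusted p = 0.000307 and 0.00441).

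Among the TEAD genes, the Tead3 transcript rose and Tead2 was lower without passing the test. Of the 7 genes, 4 passed the filter, which asks for 3 or more libraries at 1 FPKM or above (Tead2, Tead3, Ctgf and Cyr61), and 1 of these 4 passed an adjusted p under 0.05. Among all 9359 genes tested, 18% passed, 9.62% as higher and 8.39% as lower in cKO, so the share among so few members is not a result about them. Values of 2 of the 4, Tead3 and Tead2, did not overlap between the groups, which held for 39.1% of all genes tested.

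Tead3 was at 3.16, 3.27 and 2.87 FPKM in HC-1, HC-8, HC-10, and at 6.29, 5.02 and 5.25 FPKM in HM-5, HM-13, HM-16. All 3 cKO libraries lay above all 3 WT libraries, over 111 to 258 reads per library. The mean went from 3.10 ± 0.204 to 5.52 ± 0.674 FPKM (SD, n = 3 each), a 1.78-fold change. On the log2(FPKM + 1) scale the difference was 0.67 (SE 0.12, limma adjusted p = 0.0106). In the authors' deposited table the log2 fold change is 0.75 with an FDR of 8.37e-05. Without HM-5, the cKO library with the highest value, the difference was 0.58 and missed the threshold (adjusted p = 0.0516). Without HM-13 it was 0.72 (adjusted p = 0.0145). When library totals set the scale, with the ribosomal reads of HM-13 included, the difference was 0.59 (adjusted p = 0.157).

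Tead2, the TEAD gene known for its expression in early neural progenitors, was at 19.1, 20.9 and 16.6 FPKM in HC-1, HC-8 and HC-10. It was at 14.8, 15.1 and 14.1 FPKM in HM-5, HM-13 and HM-16. The cKO values were tightly grouped below the lowest WT value, over 442 to 905 reads. The mean was 18.9 ± 2.19 FPKM in WT and 14.7 ± 0.498 FPKM in cKO (SD, n = 3 each), 77.7% of WT. The difference of -0.34 (SE 0.10) had a limma adjusted p = 0.0508, just short of the threshold. It passed with voom on recovered reads (adjusted p = 0.0361), after quantile normalization (0.0278), with a filter of 5 FPKM (0.0404) and without HC-10 (0.0385), and the authors' deposited table gives an FDR of 0.0180. With voom, 2 of the 4 tested members thus passed, Tead3 up and Tead2 down. Voom called 1911 of all 9359 genes, so this count among so few members is not a result about them. Tead2 missed the threshold with library totals (limma adjusted p = 0.401), pseudocounts of 0.1 (0.0504) and 5 (0.0537), and no filter (0.0581). Of the 6 fits with a library left out, only 1 passed. Without HM-13 the adjusted p was 0.0679, and without HM-16 it was 0.150, the highest. The library without which Tead2 passed, HC-10, had the lowest Tead2 of the WT libraries and also a low summed level of cortical hem and choroid plexus markers, 45.5 FPKM against 337 and 431 FPKM in the other WT libraries. The part of this in the result was not tested.

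**Figure D2:**
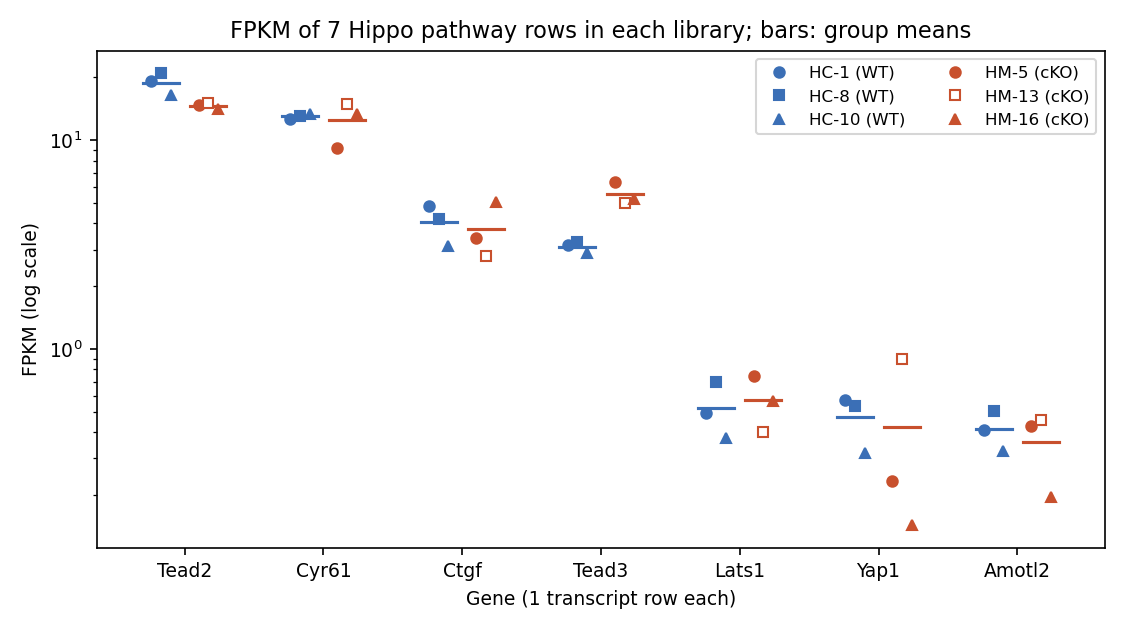
FPKM (log axis) of the 7 genes in each of the 6 libraries; short bars are group means and HM-13 is drawn open. Tead3 was at 2.87 to 3.27 FPKM in WT and 5.02 to 6.29 FPKM in cKO, Tead2 lay lower in every cKO library, and the other 5 genes overlapped between the groups.

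The balance between both TEAD transcripts differed accordingly. Tead3 made up 14.2%, 13.5% and 14.8% of the summed Tead2 and Tead3 FPKM in HC-1, HC-8, HC-10, and 29.9%, 25.0% and 27.1% in HM-5, HM-13 and HM-16. The mean share was 14.2% ± 0.637 in WT and 27.3% ± 2.47 in cKO (SD, n = 3 each), a difference of 13.2 percentage points that ran from 11.9 to 14.3 with 1 library left out. The two-sided exact permutation test gave p = 0.1, the smallest value that 3 libraries against 3 allow. This outcome was fixed by the values above. Each cKO library had more Tead3 and less Tead2 than each WT library, so each cKO share had to be higher. The share and its test therefore add no support to the differences of the single genes. This share was the 1 tested, since the other families had no second row. Since the Tead3 row is a transcript with a retained intron and Tead1 was not analysed, the share does not describe TEAD protein.

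**Figure D3:**
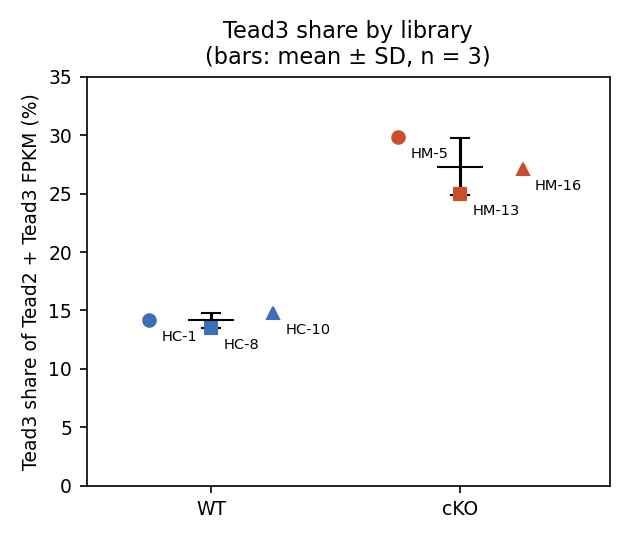
Tead3 as a percentage of summed Tead2 and Tead3 FPKM in each library, with mean ± SD of 3 libraries per group. The WT libraries lie between 13.5% and 14.8% and the cKO libraries between 25.0% and 29.9%.

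The target genes Ctgf and Cyr61 did not pass the test, and the intervals bound the difference. Cyr61 was at 12.6, 13.0 and 13.4 FPKM in WT (HC-1, HC-8, HC-10), a narrow spread, and at 9.16, 15.0 and 13.4 FPKM in HM-5, HM-13 and HM-16, where the lowest and the highest of the 6 values were found. Its means were 13.0 ± 0.421 and 12.5 ± 3.01 FPKM (n = 3 each). The log2 difference was -0.08, with a 95% interval from -0.46 to 0.30 (limma adjusted p = 0.766). Without HM-5 it was 0.11, and with any other single library left out it stayed below 0, at -0.06 (without HC-10) to -0.21 (without HM-13).

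Ctgf was at 4.85, 4.21 and 3.13 FPKM in HC-1, HC-8, HC-10 and at 3.42, 2.80 and 5.05 FPKM in HM-5, HM-13 and HM-16. The groups overlapped, with HM-16 highest and HM-13 lowest, over 58 to 131 reads. The means were 4.06 ± 0.871 and 3.76 ± 1.16 FPKM (n = 3 each), and the log2 difference was -0.10, with a 95% interval from -0.58 to 0.37 (limma adjusted p = 0.759). With 1 library left out it ran from -0.29 (without HM-16) and -0.24 (without HC-10) to 0.01 (without HC-1) and 0.05 (without HM-13). The 10 markers of meninges and mesenchyme with a row, cells in which both CCN genes are commonly expressed, summed to 477 FPKM in HC-1 and 423 FPKM in HM-16, the libraries with the highest Ctgf. The other libraries did not follow this order: HC-8, with the third highest Ctgf, had the lowest sum at 225 FPKM, and HM-5 had 384 FPKM with Ctgf at 3.42. None of the 10 markers was at 0. The part of these cells in the Ctgf values was not tested, and in bulk tissue fewer cells of a type and less RNA per cell cannot be told apart.

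The rows of Lats1, Yap1 and Amotl2 lay below the filter, with few reads. Lats1, the kinase that phosphorylates YAP, was at 0.493, 0.696 and 0.377 FPKM in HC-1, HC-8, HC-10 and at 0.748, 0.402 and 0.565 FPKM in HM-5, HM-13 and HM-16 (25 to 64 reads). Yap1 was at 0.572, 0.535 and 0.320 FPKM in WT and at 0.234, 0.901 and 0.144 FPKM in cKO, in the same library order (8 to 41 reads). HM-13 held the highest Yap1 value and the other cKO libraries the 2 lowest. Amotl2 was at 0.411, 0.507 and 0.325 FPKM in WT and at 0.429, 0.456 and 0.197 FPKM in cKO (9 to 28 reads). A second Amotl2 row, annotated as a target of nonsense-mediated decay, had 0.254 ± 0.0499 FPKM in WT and 0.237 ± 0.0904 in cKO (n = 3 each).

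Fitted without the filter on FPKM, none of these 3 passed limma's test. Their log2 differences were 0.05 for Lats1 (95% interval -0.23 to 0.32, adjusted p = 0.838), -0.08 for Yap1 (-0.52 to 0.35, adjusted p = 0.809) and -0.06 for Amotl2 (-0.30 to 0.18, adjusted p = 0.750). Because of the pseudocount of 1, these values understate changes at such low levels. Voom on the reads, without the pseudocount, gave -0.66 (SE 0.53) for Yap1, -0.29 (SE 0.38) for Amotl2 and 0.14 (SE 0.30) for Lats1, with adjusted p = 0.449, 0.651 and 0.791.

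**Figure D4:**
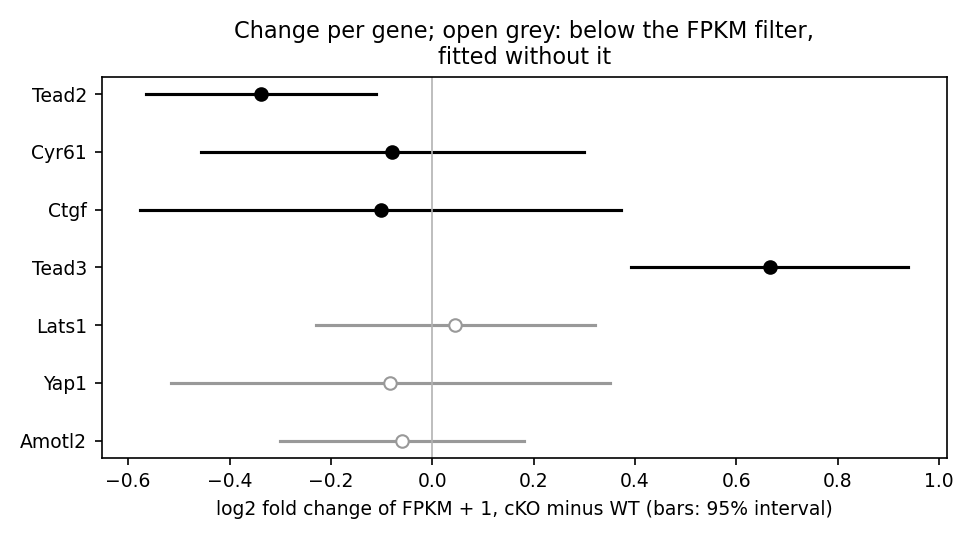
Difference between cKO and WT in log2(FPKM + 1) for the 7 genes, with 95% intervals; open grey points are the 3 genes below the filter, fitted without it. The intervals of Tead3 and Tead2 lie on opposite sides of 0, though the adjusted p of Tead2 was 0.0508, and those of the other 5 include 0.

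The order of the 7 levels per length was nearly the same in both groups. In WT, Tead2 was highest (mean 18.9 FPKM), followed by Cyr61 (13.0), Ctgf (4.06), Tead3 (3.10), Lats1 (0.522), Yap1 (0.476) and Amotl2 (0.414). The ranges of Ctgf and Tead3 overlapped in WT, as did those of Lats1, Yap1 and Amotl2 with their neighbours, while Tead2 lay above Cyr61 in each WT library. In cKO, Tead3 (5.52) stood above Ctgf (3.76) with overlapping ranges, and Tead2 (14.7) no longer lay clear of Cyr61 (12.5).

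The genes whose profile over the 6 libraries was most like that of Tead3 were Cdkn3, Bmf and Dmrta1. The search covered tested genes, without predicted genes, clone names, small RNA genes, Xist, Tsix and Y-linked genes. Likeness was the mean absolute difference of log2(FPKM + 1) after each gene was centred on its own mean. It was 0.03 for Cdkn3, a phosphatase that acts on cyclin-dependent kinases, 0.03 for the pro-apoptotic Bmf and 0.04 for the transcription factor gene Dmrta1. Bmf passed the filter through its cKO values alone, and its likeness holds on this scale only: voom gave it a log2 difference of 1.58 against 0.83 for Tead3. Levels differ among the 3 genes: Cdkn3 had 5.40 ± 0.263 FPKM in WT and 9.43 ± 1.66 in cKO, Bmf 0.397 ± 0.0298 and 1.21 ± 0.146, and Dmrta1 42.2 ± 1.81 and 70.7 ± 6.88 (n = 3 each).

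Upstream of the members, 28 of 52 listed regulators of the pathway could be tested, 27 of them by a coding transcript. Of these, 4 rose, 1 fell and 23 did not pass, with a median log2 difference of -0.01, the same as over all 9359 genes (-0.01). The 5 of 28 called are near the 18% called among all genes, so the count is not a result about the regulators. Those that rose were Wwc2, Fat4, Ajuba and Rassf2, and the one that fell was Ywhae. The core cassette genes Stk4, Sav1 and Mob1a were tested and did not pass (named after their values were seen). Stk3 and Mob1b, also listed, had a row but lay below the filter and were not tested.

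Wwc2, a scaffold protein of the KIBRA family that promotes LATS activity, was at 13.5, 13.8 and 11.0 FPKM in HC-1, HC-8, HC-10 and at 25.7, 19.5 and 26.7 FPKM in HM-5, HM-13 and HM-16. The groups did not overlap, and the mean rose 1.87-fold (log2 difference 0.85, SE 0.14, limma adjusted p = 0.00820). It passed whichever of the 6 libraries was left out, and with library totals as scale. Rassf2, which binds the MST kinases, rose from 25.0 ± 0.970 to 34.7 ± 2.06 FPKM (n = 3 each; 1.39-fold, adjusted p = 0.00694) and likewise passed whichever library was left out.

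Fat4, a giant cadherin linked to Hippo signalling, was at 13.9, 14.6 and 16.3 FPKM in the WT libraries and at 24.7, 20.0 and 20.5 FPKM in the cKO libraries, in the order given above. It rose 1.46-fold (adjusted p = 0.0172), but missed the threshold without HC-1 (0.0504), HM-16 (0.0536) or HM-5 (0.0676). Ajuba, a LIM protein that binds LATS kinases and whose gene is also listed among YAP targets, rose from 15.1 ± 1.55 to 21.7 ± 0.556 FPKM (n = 3 each; 1.43-fold, adjusted p = 0.0119). It missed the threshold without HM-16 (0.0506) or HM-5 (0.0619). Ywhae, a 14-3-3 protein of the family that holds phosphorylated YAP, fell from 146 ± 4.69 to 116 ± 1.29 FPKM (n = 3 each; 79.1% of WT, adjusted p = 0.00741) and passed whichever library was left out. With library totals as scale, Wwc2 alone of these 5 passed.

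Of 41 other genes commonly read as YAP and TEAD targets, 22 had a row and 15 were tested, all by coding transcripts. Of these, 2 rose, 1 fell and 12 did not pass, with a median log2 difference of 0.13. The 3 of 15 called are also near the 18% of all genes. Besides Ajuba, Gadd45a, a gene induced by growth arrest and DNA damage, was at 16.8, 18.0 and 13.5 FPKM in HC-1, HC-8, HC-10 and at 25.7, 20.5 and 25.1 FPKM in HM-5, HM-13 and HM-16. It rose 1.48-fold (log2 difference 0.54, SE 0.13, limma adjusted p = 0.0276), and missed the threshold without HC-1, HC-10, HM-16 or HM-5 (highest adjusted p = 0.111). Ccnd1, the cyclin D1 gene, which other pathways also regulate, was at 109, 137 and 120 FPKM in WT and at 68.2, 63.0 and 83.6 FPKM in cKO. Its mean was 58.7% of WT, with a log2 difference of -0.76 (SE 0.12, limma adjusted p = 0.00756), and it passed whichever library was left out (highest adjusted p = 0.0407). The members Ctgf and Cyr61 are counted apart from these 15.

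**Figure D5:**
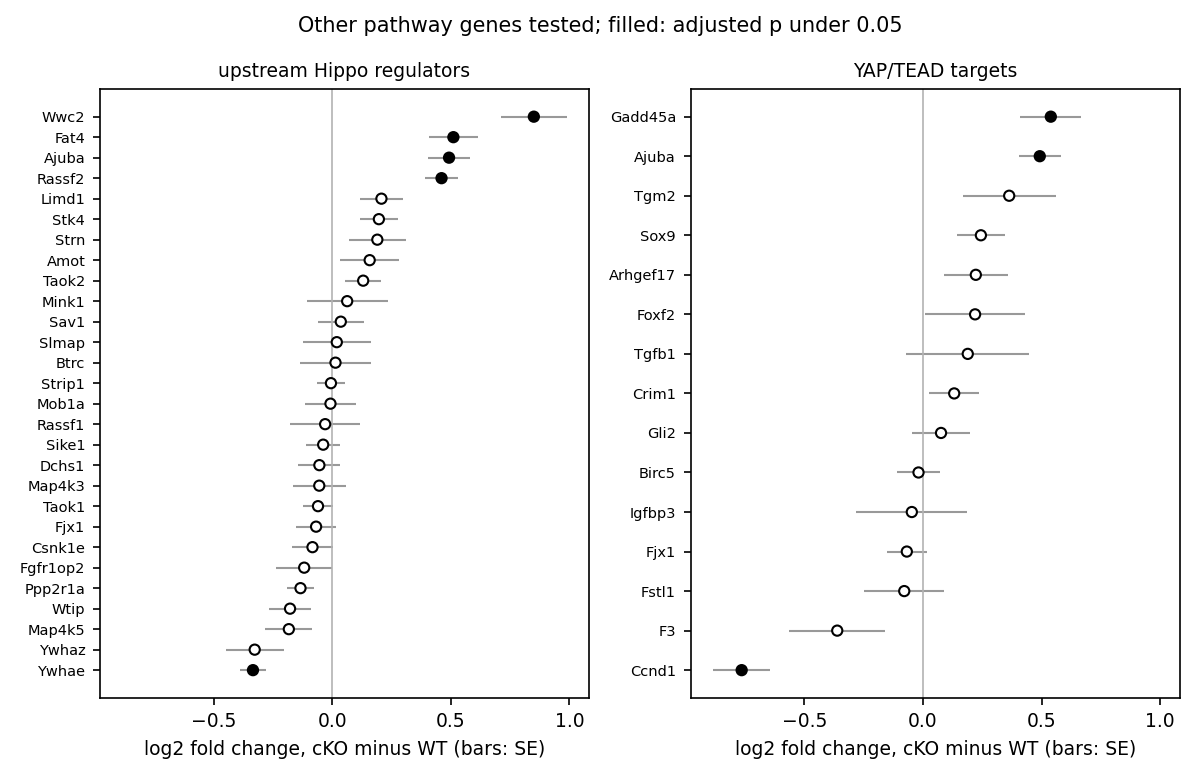
Log2 difference between cKO and WT with its SE for the 28 upstream regulators and 15 target genes tested; filled points passed an adjusted p under 0.05. Of the regulators 4 passed above 0 and 1 below, and of the targets 2 above and 1 below.

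The 6 microglial markers with a row summed to 52.7 to 60.4 FPKM in WT and 73.3 to 79.7 FPKM in cKO, and Tyrobp and C1qb rose among them (limma adjusted p = 0.0150 and 0.0170). Tyrobp missed the threshold without HM-16 (0.0625), and C1qb when HM-16 (0.0703), HM-5 or HC-10 was left out. The 11 radial glia markers with a row, of 12 listed, summed to 3428 to 3708 FPKM in WT and 3010 to 3307 FPKM in cKO, with 1 up (Emx2) and 1 down (Fabp7) of 8 tested; no marker of either list was at 0. Since 18% of all 9359 genes tested passed, the count among these 8 is not a result about radial glia. Fabp7 alone went from a mean of 825 to 311 FPKM, while the list's median log2 difference was 0.08, with 4 of 8 above 0. Emx2 passed in 1 fit of 6 with a library left out, that without HM-13 (highest adjusted p = 0.129). The 9 projection neuron markers with a row summed to 1167 to 1545 FPKM in WT and 846 to 1262 FPKM in cKO. Of these, 8 were tested, with a median log2 difference of -0.39 and 1 of 8 above 0. In this list 0 of 8 passed limma (3 with an unadjusted p under 0.05, 2 lower with voom). Limma and voom both called 0 of 5 endothelial, 10 meningeal, 10 hem and choroid, 4 epithelial and 4 erythroid markers tested, with 0, 1, 0, 1 and 0 at an unadjusted p under 0.05. The 4 epithelial markers with a row, of 8 listed, summed to 3.45 to 14.6 FPKM in WT and 12.9 to 18.0 FPKM in cKO. The part of these cells in the rise of Tead3, Wwc2 or the other genes above was not tested.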

How the data were processed

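RNA-seq of 6 cortex libraries was used (3 per group). Per the submitters' processing notes, the build is mm10 and the tools are DESeq2 1.22.1, R 3.4.1, featureCounts 1.6.1, STAR 2.5.4b and bcl2fastq 1.8.4. The authors deposited FPKM per library, in 14379 rows of 1 transcript each. The deposited table also holds the authors' mean normalized signal per row (baseMean), their log2 fold change and their p-value and FDR (missing for 4509 rows). Columns named HC were read as WT and HM as cKO from the letters. Library names are those columns, which carry no replicate number of the labels.

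FPKM times mean normalized count over mean FPKM, divided by a step fitted per library, gave 100% whole reads in each library (within 0.001 of a read). Reads per library limit the precision, and totals cover only the table's rows. One row per symbol was kept, that with the highest mean normalized count. Symbols at 1 FPKM or above in 3 or more libraries were tested across all genes on log2(FPKM + 1) with limma 3.58.1 (R 4.3.3), with an intensity trend and group as the only term. Fold changes on this scale understate those of low genes. A gene was called, and written as rose or fell, at a Benjamini-Hochberg adjusted p under 0.05. DESeq2 was not run here. The code was tested on simulated data. Annotation was GENCODE M21 (GRCm38).

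The members and lists were chosen with earlier results of these data known. Named genes are the members, up to 5 called genes per list (2 where none was called, covered here by counts) and the 3 genes most like each called member. Predicted genes, clone names, small RNA genes, Xist, Tsix and Y-linked genes were left out of the search for likeness. Alternatives were other pseudocounts (0.1, 5), filters, scalings, row sums per symbol, voom and leaving out each library; voom without the filter was added after seeing the data. The result of 1 listed marker gene is not reported here.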

Additional observations from a re-analysis of the deposited data

How the results depend on the processing

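Tead3 kept its direction under each alternative run, with a log2 difference of 0.38 (pseudocount 5) to 0.83 (voom), and missed the threshold with library totals and without HM-5. The number of members called, 1 of 4 with limma, was 2 with voom, 2 after quantile normalization, 2 with a filter of 5 FPKM (3 members tested, Tead3 among them through its cKO values alone, so that this count is no support for its call) and 0 with library totals (1 at an unadjusted p under 0.05); with 1 library left out it ran from 0 (without HM-5, 2 at an unadjusted p under 0.05) to 2 (without HC-10). Among all genes, 1911 of 9359 passed with voom, 1832 of 9359 after quantile normalization and 1497 of 5756 with a filter of 5 FPKM. With library totals, 1 of 28 regulators, 1 of 15 targets and 515 of 9359 genes passed, against 5, 3 and 1685. With 1 library left out, the regulators called ran from 3 (without HM-5 or HM-16) to 5, the targets from 1 (without HM-5 or HM-16) to 5 (without HM-13), and all genes from 511 (without HM-5) through 545 (without HM-16), 888 (without HC-10) and 1103 (without HC-1) to 1773 (without HM-13). The cause of these shifts was not tested. No gene named was called in opposite directions under any alternative run. No paired analysis was possible because the labels name no pairing, and the columns carry no replicate number of the labels. The rows of Yap1, Lats1 and Amotl2 had at most 64 reads per library; the part of depth and of spread between libraries in their wide intervals was not tested.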
